A study of Mus musculus with 150 samples.

Results

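Lung RNA of transgenic (TG) mice that had inhaled styrene to the 104 week time point was compared with lung RNA of TG mice kept in air. The members are the 11 arrays, of 150 in the series, whose labels give the TG strain and 104 weeks: 6 mice at a dose of 120 ppm styrene and 5 mice at 0 ppm. TG mice are C57Bl/6 males that lack mouse CYP2F2 and carry human 2F1, SA13 and 2B6, as the labels write the genotype. Both TG groups therefore share the deletion and the transgenes. No source used here gives the promoter that drives the transgenes. Other mice at 104 weeks serve for comparison: knockout (KO) C57Bl/6 mice that lack CYP2F2 and carry no transgene (5 styrene, 6 air), wild-type (WT) C57Bl/6 mice (5 styrene, 4 air) and CD-1 mice, an outbred stock (10 styrene, 7 air). TG mice at 26 and 52 weeks (19 arrays) are the earlier reference, and TG mice at 78 weeks (3 styrene, 5 air) are described beside them. All mice were adult males, each array held whole lung of 1 mouse, and 1 exposed TG mouse (replicate 5) has a note of tumours in its label. Of the comparison mice at 104 weeks, 1 KO air, 1 WT air, 2 CD-1 air and 5 CD-1 styrene mice have such a note too. The treatment text describes shorter exposures than the titles do, and the titles were followed.

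Styrene is a volatile solvent that lung and liver cytochrome P450s oxidise to styrene oxide and to ring-hydroxylated products. In mouse lung the club cell, a secretory cell of the small airways, holds most of this activity, and its main styrene-oxidising enzyme is Cyp2f2. Removing Cyp2f2 protects mouse airways from styrene, and the transgenic line asks whether the human enzymes of the same families restore a response. Reactive metabolites are cleared by epoxide hydrolases and by conjugation with glutathione, and they induce antioxidant genes through the factor NRF2.

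The values are log2 signal intensities, on which a difference of 1 is a doubling. Each gene is represented by its brightest probe set, and 15695 genes passed a filter that asks for a level above about 3, the lower end of the scale. Cyp2f2 itself, the deleted gene, read 11.93, 12.07, 11.89, 12.39, 12.02 and 12.02 in the 6 exposed TG mice, against 11.97, 12.20, 11.92, 12.16 and 12.05 in the 5 TG air mice. These values overlap throughout, and every one lies below the lowest WT value of 13.08. The KO mice had 11.95 to 12.25 under styrene and 11.99 to 12.30 in air. The signal is thus lower in TG and KO lungs than in WT lungs without being near the lower end of the scale. A probe outside the deletion would check nothing, and the sources used here do not place it. The human transgenes have no probe set of their own in the annotation used.

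At 104 weeks dose and array plate nearly coincide. All air arrays lie on plate 3, and the styrene arrays lie on plate 4, except that the plate of TG styrene replicates 1 and 2 and of KO styrene replicates 4 and 5 is 3 or 4. An effect of the dose and one of the plate therefore cannot be told apart within any strain. A second property of the arrays moves with the results below. The main axis along which mice of one group differ was taken from the 102 arrays of 26 to 78 weeks, where it holds 23.7% of the variance within groups, and all arrays were then scored on it. Exposed TG mice scored 34.6, -2.39, 21.6, 12.5, -4.97 and 12.0, against 26.9, -15.8, 7.99, -8.97 and 13.3 in TG air mice. The 2 TG groups overlap, with means of 12.2 ± 14.8 and 4.69 ± 17.2 (SD, n = 6 and 5; two-sided exact permutation p = 0.455). KO mice under styrene averaged -31.8 ± 26.2 against 10.5 ± 11.5 in KO air mice (n = 5 and 6; exact permutation p = 0.0173). WT mice under styrene averaged -39.9 ± 8.85 against 15.6 ± 5.92 in WT air mice (n = 5 and 4; exact permutation p = 0.0159, the smallest possible). CD-1 mice under styrene averaged -32.6 ± 18.5 against 17.9 ± 9.11 in CD-1 air mice (n = 10 and 7; exact permutation p = 2.06e-04). A low score under styrene was not absent from TG mice at every time: at 78 weeks the 3 exposed TG mice scored -78.5 to -3.79, against -0.27 to 34.2 in the 5 TG air mice, with means of -38.9 ± 37.5 and 23.1 ± 13.5 (SD). Unlike the 104 week arrays, these arrays are among the 102 that set the axis. The exposed ones lie on plate 2 and the air ones on plate 1, so dose and plate cannot be told apart there either. Adjusted over the 4 tests at 104 weeks the p-values are 0.455 in TG, 0.0231 in KO and in WT, and 8.23e-04 in CD-1 mice.

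**Figure D1:**
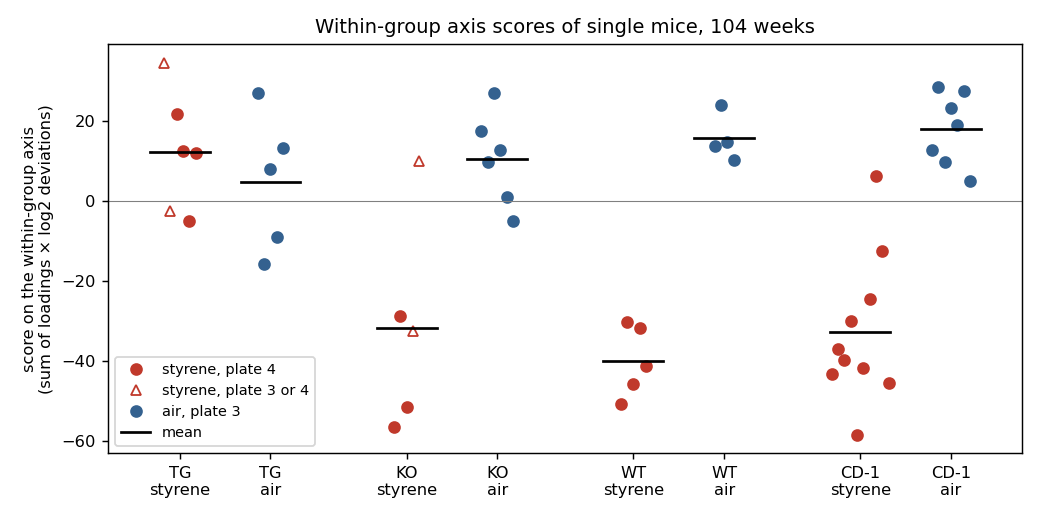
Score of each mouse at 104 weeks on the main axis of differences within groups, with styrene groups left of air groups. Points are mice, open triangles are arrays whose plate is 3 or 4, and lines are means. The 6 exposed TG mice lie between -4.97 and 34.6, within or above the TG air range, while the exposed WT mice all lie below the WT air mice.

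In TG lung at 104 weeks, styrene and air groups did not differ in any gene past the threshold. With limma over 15695 genes, 0 genes (0%) reached an adjusted p under 0.05, and the smallest adjusted p was 0.212. At an unadjusted p under 0.05 there were 980 genes (6.24%), 448 (2.85%) with a higher and 532 (3.39%) with a lower mean in exposed mice. The difference was above 0 in 47.2% and below 0 in 52.8% of genes. The median size of the difference was 0.09 on the log2 scale, and 22 genes differed by more than 1. The 95% confidence interval of the difference lay inside a doubling and a halving for 15350 genes (97.8%), with a median half-width of 0.25. In 92 genes (0.586%) the 6 exposed and 5 air mice did not overlap at all, 38 (0.242%) higher and 54 (0.344%) lower. Since no gene was called, the values below are descriptions of the 11 mice, named by their rank or list and not as changes.

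Zfp292, a large zinc finger protein, had the smallest p of the genes with a higher mean. It read 7.11, 6.58, 6.83, 6.35, 6.59 and 6.61 in exposed TG mice, against 6.66, 5.70, 6.24, 5.62 and 5.81 in TG air mice. Every exposed mouse lies above the air mean, but the highest air mouse lies within the exposed range (log2 difference 0.67, SE 0.15, limma adjusted p = 0.212). Without that air mouse, replicate 1, the gene was called at an adjusted p of 0.00945, and with the axis score as a covariate, a fit in which 2 genes (0.0127%) were called, at 0.0157, whereas the mean of all its 6 probe sets gave a difference of 0.27 (adjusted p = 0.76). Over all alternatives its adjusted p ran from 0.00945 to 0.785.

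The next 7 genes with a higher mean were mostly dim. Map7d2, a microtubule-associated protein, had 3.21, 3.19, 3.29, 3.34, 3.33 and 3.28 in exposed mice and 2.67, 3.19, 2.96, 2.74 and 2.65 in air mice. The groups meet at 3.19 and separate only in further decimals (difference 0.43, adjusted p = 0.212). It was under the filter level in 4 of the 5 air arrays. Capn11, a testis calpain, the protocadherin Pcdhb21, Prr16, the lipid droplet enzyme Hsd17b13, the glutathione peroxidase relative Gpx6 and 4933411E08Rik differed by 0.36 to 0.43. Hsd17b13 lay under the filter level in all 11 arrays, so that its difference of 0.36 is one between values near background.

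Among genes with a lower mean, Tpgs2, a subunit of the tubulin polyglutamylase complex, read 5.27, 5.83, 5.34, 5.79, 5.65 and 5.72 in exposed mice against 6.02, 6.44, 6.10, 6.36 and 6.31 in air mice. The groups are separated by a gap between 5.83 and 6.02 (difference -0.65, SE 0.16, adjusted p = 0.261). Cd69, an activation marker of lymphocytes, read 3.80, 4.15, 4.39, 4.44, 4.10 and 5.26 in exposed mice against 6.03, 5.35, 5.53, 6.94 and 3.94 in air mice. Its lowest air mouse, replicate 5, lies among the exposed mice (difference -1.20, adjusted p = 0.358), and without it the gene was called (difference -1.60, adjusted p = 0.017). Akr1a1, an aldo-keto reductase that reduces aldehydes, differed little and without overlap, at 12.12 ± 0.07 in exposed mice and 12.29 ± 0.05 in air mice (SD, n = 6 and 5; difference -0.17, adjusted p = 0.371). The WD-repeat gene Wdr89 (-0.41) did not overlap either, and Vwa3a (-0.50), Irf2bpl (-0.41), 1700023F02Rik (-0.38) and the inositol polyphosphate phosphatase Minpp1 (-0.32) overlapped by 1 or more mice.

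**Figure D2:**
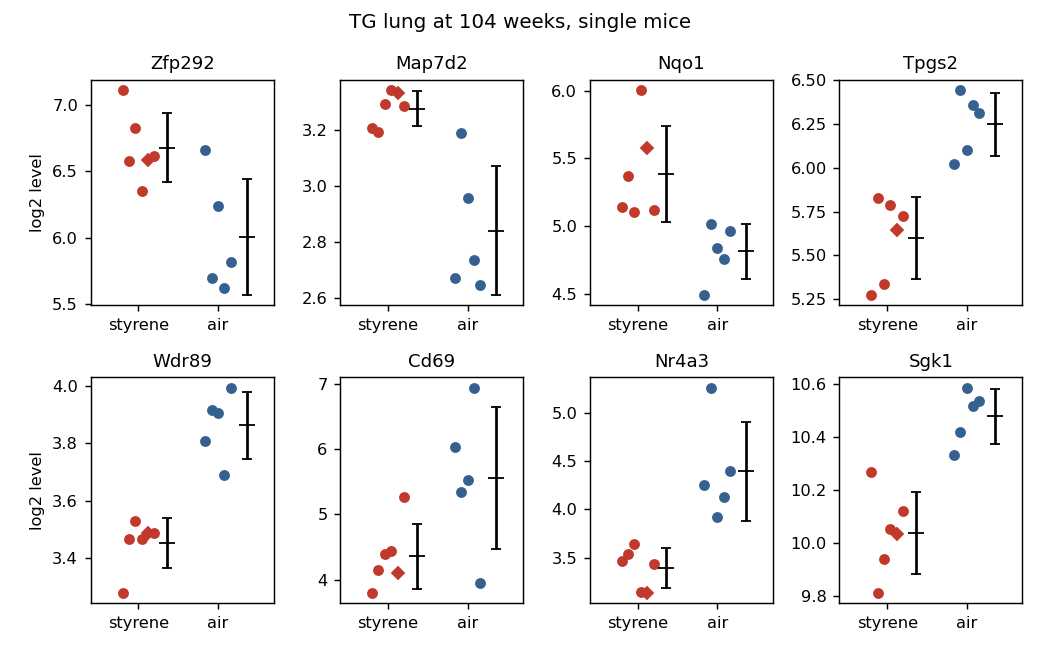
Log2 level of 8 genes in each TG mouse at 104 weeks, styrene left of air, with mean and SD beside the points. The diamond is the mouse whose label notes tumours. Map7d2, Nqo1, Tpgs2, Wdr89, Nr4a3 and Sgk1 show no overlap between groups, whereas Zfp292 and Cd69 do overlap, and none of the 8 was called.

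A list of P450s and epoxide hydrolases drawn up for styrene had a median difference between exposed and air TG mice close to that of all genes. Whether each member acts on styrene was not tested. Of its 10 tested genes none was called. Their median was -0.03, against -0.01 in all genes, and they ran from -0.58 to 0.09. The P450 Cyp2e1 had a difference of -0.99 to -0.15 over the alternatives and was called in none. The soluble epoxide hydrolase Ephx2 had 4.12 to 5.05 in exposed mice and 4.70 to 5.38 in air mice (difference -0.49, adjusted p = 0.791). Cyp2f2 differed by -0.01, with an interval of -0.22 to 0.21. The 18 tested glutathione S-transferases lay between -0.21 and 0.14, median 0.00. Of 20 tested NRF2 targets 8 had a positive difference and the median was -0.05. The quinone reductase Nqo1, an NRF2 target, was the exception in that list: it read 5.14, 5.37, 5.11, 6.01, 5.58 and 5.12 in exposed mice against 4.49, 5.01, 4.84, 4.76 and 4.96 in air mice. The groups do not overlap (difference 0.57, SE 0.21, adjusted p = 0.678). Fth1, the ferritin heavy chain, and the efflux pump Abcc4 had lower means, by 0.12 and 0.27 on the log2 scale, with overlapping groups.

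A list of 16 genes that earlier analysis of these arrays had linked to styrene in WT or CD-1 lung was then read in TG mice. It was chosen on the WT and CD-1 arrays, so their values are given as a description and the strain differences are not independent evidence. In TG mice none of the 16 was called and 5 had a positive difference, with a median of -0.04. Ces1g, a carboxylesterase that hydrolyses esters and lipids, read 4.23, 4.12, 4.01, 4.36, 4.48 and 3.98 in exposed TG mice against 3.90, 4.40, 4.19, 3.92 and 4.58 in TG air mice. The difference was 0.00, with an interval of -0.54 to 0.53. Over all genes, 7527 (48%) were called between styrene and air in WT mice and 9977 (63.6%) in CD-1 mice. In WT mice Ces1g read 7.47 to 8.69 under styrene and 5.10 to 5.76 in air, a difference of 2.74, in CD-1 mice the difference was 2.60, and in KO mice 0.37 (adjusted p = 0.278). Serpind1, which encodes the thrombin inhibitor heparin cofactor II, read 4.22, 4.55, 5.00, 4.36, 5.43 and 4.16 in exposed TG mice against 4.70, 5.17, 4.27, 4.82 and 4.95 in TG air mice. The 2 groups overlap (difference -0.16, interval -0.64 to 0.32). In WT mice it read 5.95 to 6.79 under styrene and 4.36 to 5.06 in air (difference 1.74), with 2.87 in CD-1 and 0.20 in KO mice.

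Ces1g and Serpind1 come from the list above of genes linked to styrene, and Zfp292 leads the TG comparison. Shown are the windows from 250 bases before to 50 bases after the start sites of these 3 genes. They are RefSeq sequences of GRCm38.p6, printed 5′ to 3′ on the gene's strand, with capitals at every match to 3 motifs searched on both strands: CACGTG (E-box, read by clock factors), TGACNNNGC (core of the antioxidant response element) and GCGTG (core of the xenobiotic response element). Ces1g lies at chr8:93337160-93337459, minus strand, Serpind1 at chr16:17331121-17331420, plus strand and Zfp292 at chr4:34882899-34883198, minus strand.
Ces1g: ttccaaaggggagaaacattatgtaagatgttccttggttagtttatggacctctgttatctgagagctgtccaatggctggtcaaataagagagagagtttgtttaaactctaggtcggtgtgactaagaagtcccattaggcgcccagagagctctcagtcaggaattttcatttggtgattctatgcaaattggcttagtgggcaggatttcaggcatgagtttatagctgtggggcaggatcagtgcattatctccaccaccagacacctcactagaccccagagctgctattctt
Serpind1: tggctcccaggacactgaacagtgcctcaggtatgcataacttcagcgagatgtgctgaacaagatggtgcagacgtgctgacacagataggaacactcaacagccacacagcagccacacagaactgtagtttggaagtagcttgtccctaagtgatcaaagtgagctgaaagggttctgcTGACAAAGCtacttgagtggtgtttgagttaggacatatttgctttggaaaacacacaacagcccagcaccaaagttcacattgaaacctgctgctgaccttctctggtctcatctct
Zfp292: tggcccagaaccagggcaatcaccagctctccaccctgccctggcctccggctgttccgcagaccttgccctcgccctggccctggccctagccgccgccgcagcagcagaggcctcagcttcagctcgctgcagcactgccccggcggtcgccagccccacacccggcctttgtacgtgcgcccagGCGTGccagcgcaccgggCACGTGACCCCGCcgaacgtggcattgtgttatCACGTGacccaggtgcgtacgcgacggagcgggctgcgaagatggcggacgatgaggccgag
Ces1g held none of the 3 motifs in this window. Serpind1 held 1 match to the antioxidant core, beginning at position -68 from the start site. Zfp292 held 2 E-boxes, at -45 and -12, an antioxidant core at -41 that overlaps the first E-box, and a xenobiotic core at -63. Of all 32851 promoter windows 7.15% hold the E-box, 12.39% the antioxidant core and 32.39% the xenobiotic core. A match is a run of letters and no measured binding.

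Of the other genes of the list, Pon1, the paraoxonase, read 9.52 to 10.38 in exposed TG mice and 9.51 to 10.47 in TG air mice (difference 0.18). WT mice had a Pon1 difference of -1.64, CD-1 mice -0.60 and KO mice -0.26. Asgr1, a subunit of the asialoglycoprotein receptor, differed by -0.02 in TG mice and by -1.46 in WT mice. The WT difference was not shared by CD-1 mice (0.20, limma adjusted p = 0.575), and KO mice had 0.56 (0.232). Kng1, the kininogen gene, read 2.26 to 3.17 in exposed TG mice and 2.39 to 2.61 in TG air mice, near the lower end of the scale, against 3.78 to 5.14 under styrene and 2.35 to 2.56 in air in WT mice. Ces1f, a neighbour of Ces1g in the same family, read 3.72 to 5.97 in exposed TG mice and 4.06 to 4.75 in TG air mice (difference 0.23), and its KO difference was 1.12 (adjusted p = 0.00305). In WT mice Ces1f differed by 0.20 (limma adjusted p = 0.665) and in CD-1 mice by 0.94 (8.14e-04).

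**Figure D3:**
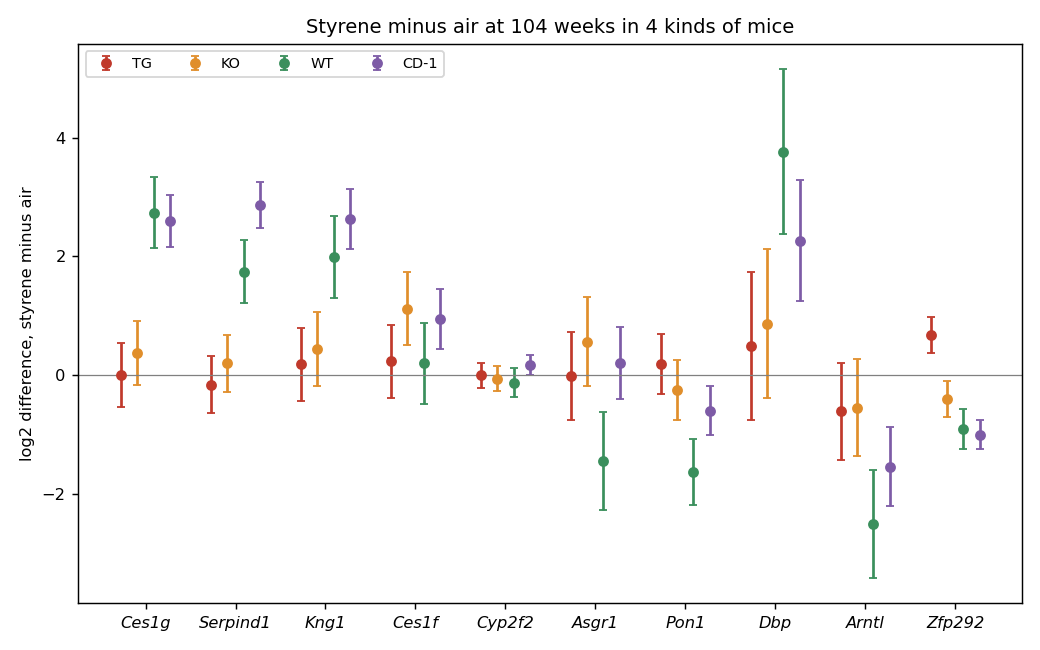
Log2 difference between styrene and air at 104 weeks for 10 genes in TG, KO, WT and CD-1 mice, with the 95% confidence interval from the model. TG points for Ces1g, Serpind1 and Kng1 lie near 0 where WT and CD-1 points lie between 1.74 and 2.87, and Zfp292 is above 0 in TG mice and below 0 in the other 3 kinds.

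The core clock is a feedback loop in which Arntl with Clock or Npas2 activates the Per and Cry repressors and the output factors Dbp, Tef and Hlf, and it runs in lung as in other tissues. None of the 17 tested clock genes was called in TG mice. The activators Npas2, Arntl and Clock differed by -0.69, -0.61 and 0.21. Nfil3, a repressor that opposes Dbp at its targets and stands in the same list of 4 genes (median -0.59), differed by -0.57. Arntl read 6.62, 5.96, 4.72, 4.60, 4.42 and 4.98 in exposed mice and 5.61, 5.75, 4.84, 6.21 and 6.74 in air mice. The highest exposed mice are replicates 1 and 2, and those are the 2 exposed arrays whose plate is 3 or 4. Dbp ran the other way, at 6.82, 8.20, 8.86, 9.32, 9.31 and 9.25 in exposed mice and 8.09, 9.13, 9.03, 7.50 and 6.93 in air mice. The 13 repressors and outputs had a median of 0.19, and 11 were positive: Hlf 0.56, Dbp 0.49, Nr1d2 0.44, Tef 0.43, Per3 0.42, Ciart 0.31, Usp2 0.19, Per2 0.17, Cry2 0.10, Bhlhe41 0.09 and Bhlhe40 0.06, against Cry1 -0.08 and Per1 -0.39. Over the alternatives some of these differences took both signs. Arntl ran from -0.89 to 0.46, Dbp from -0.63 to 0.85, Ciart from -0.52 to 0.52 and Per2 from -0.70 to 0.35. Tef stayed above 0 (0.17 to 0.53) and Nfil3 below 0 (-0.91 to -0.22). The labels place death in the morning without an hour per mouse, and the part of the hour in these values was not tested.

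Glucocorticoid-induced genes did not move as 1 group. Zbtb16, a zinc finger factor that glucocorticoids induce, read 9.90, 8.23, 8.84, 8.91, 8.96 and 7.21 in exposed mice and 7.62, 7.20, 5.74, 6.42 and 9.24 in air mice (difference 1.43, adjusted p = 0.688). Fkbp5, a receptor co-chaperone, differed by 0.75 and Errfi1, a feedback inhibitor of EGF receptor signalling, by -0.37. Sgk1, a kinase induced by the same hormone, lay the other way and without overlap, at 9.81 to 10.27 in exposed mice and 10.33 to 10.59 in air mice (difference -0.44, adjusted p = 0.434). Of 13 tested genes of this list 5 were positive.

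Immediate-early genes, which respond within minutes to stimulation and also to handling of tissue, had mostly lower means in exposed TG mice. Of 17 tested 3 were positive, the median was -0.17 and 6 lay lower at an unadjusted p under 0.05, where 3.39% of all genes did; none was called. The nuclear receptor Nr4a3 read 3.47, 3.54, 3.65, 3.15, 3.14 and 3.44 in exposed mice against 4.26, 5.26, 3.92, 4.13 and 4.40 in air mice. The groups do not overlap (difference -0.996, SE 0.29, adjusted p = 0.4). Klf4 differed by -0.48, the phosphatase Dusp1 by -0.46 and Jund by -0.32.

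Markers of lymphoid tissue had lower means, again without a call. In bulk lung, fewer cells of a type and less RNA per cell cannot be told apart. All 12 class II antigen presentation genes were below 0, median -0.22, among them H2-Ab1 (-0.36) and the peptide loader H2-DMb1 (-0.45). H2-Ab1 read 10.11 to 10.93 in exposed mice and 10.67 to 11.11 in air mice. Of 13 tested B cell markers 12 were negative (median -0.36), and the list averaged 5.21 to 7.22 in exposed mice and 5.45 to 7.26 in air mice. Follicle genes had a median of -0.30, with the follicular homing receptor Cxcr5 at -0.76, the B cell complement receptor Cr2 at -0.63 and the cytokine Ltb at -0.53. T and NK cell markers had a median of -0.03, and the granule protease Gzma lay at 0.79, with 7.81 to 9.77 in exposed mice and 7.35 to 8.59 in air mice.

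Macrophage and neutrophil markers went different ways. Alveolar macrophage markers had a median of -0.22, and Siglecf, the defining lectin, did not overlap: 6.59, 6.62, 6.46, 6.41, 6.83 and 6.88 in exposed mice against 7.07, 7.01, 7.34, 7.02 and 7.20 in air mice (difference -0.50, SE 0.19, adjusted p = 0.691). Krt79 differed by -0.61. Neutrophil markers had a median of 0.39, with 10 of 13 positive, and the neutrophil collagenase Mmp8 lay at 1.04 (5.07 to 7.70 in exposed mice, 4.96 to 7.05 in air mice). Type I interferon genes had a median of 0.17, with 12 of 15 positive.

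Epithelial marker lists had medians between -0.16 and 0.07. Of 16 tested ciliated cell markers 1 was positive, median -0.16. Foxj1, the factor that programs motile cilia, read 7.24, 6.82, 7.05, 7.90, 6.37 and 6.59 in exposed mice and 7.38, 7.65, 7.66, 7.72 and 7.92 in air mice (difference -0.67, adjusted p = 0.664). Replicate 4 is the only exposed mouse among the air mice. The dynein chain Dnaic2 differed by -0.57. Goblet and mucin genes had a median of -0.14, with 3 of 12 positive, and reached -1.85 for the secreted goblet protein Clca1 (limma adjusted p = 0.83) and -1.29 for Bpifb1. Over the alternatives the Bpifb1 difference took both signs, from -1.62 to 0.76. Club cell markers had a median of -0.04 and reached -1.08, and alveolar type 2 markers had a median of -0.06. Of 13 alveolar type 1 markers 12 were positive, median 0.07, with Pdpn at 0.21 and Cldn18 at 0.18. Among 21 tested lung tumour markers the median was -0.01, and Tff2, a mucosal repair peptide, lay at -1.14 with 6.00 to 8.82 in exposed and 7.89 to 8.67 in air mice. Gkn1 differed by -0.25 near the lower end of the scale. Mitotic genes had a median of -0.10 with 6 of 21 positive, and DNA replication genes -0.07 with 6 of 22. The p53 targets had 0.02 with 10 of 15 positive. In all genes the median was -0.01, with 47.2% positive.

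Respiratory chain genes were bright and tight: 5 of 21 were positive, median -0.04, with Cox5a at -0.22, Uqcrfs1 at -0.15 and Atp5a1 at -0.13 without overlap (10.62 to 10.73 in exposed mice, 10.74 to 10.87 in air mice). In the matrix list the median was -0.03, with the collagen Col5a2 at -0.30, elastin Eln at -0.40 and the crosslinking enzyme Lox at 0.53. Over the alternatives the Eln difference took both signs, from -0.52 to 0.16. F2rl2, a platelet thrombin receptor, differed by 0.36, in a list of 9 with a median of 0.14 and all 9 positive.

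Heart and fat can adhere to dissected lung, and their marker lists had low medians. Of 14 tested heart muscle genes 13 were negative, median -0.59, and the list averaged 5.02 to 6.20 in exposed mice and 6.09 to 6.66 in air mice. The atrial hormone Nppa read 4.89, 7.41, 4.68, 4.38, 3.11 and 4.54 in exposed mice against 6.40, 7.24, 7.42, 7.37 and 6.53 in air mice (difference -2.16, SE 0.98, adjusted p = 0.757). Only replicate 2 of the exposed mice lies within the air range. Nppb (-0.54), Ryr2 (-0.43) and the cardiac actin Actc1 (-0.70) lay the same way. Adipose genes had a median of -0.48. The fat hormone Adipoq read 4.83, 5.31, 3.08, 6.06, 2.81 and 4.34 in exposed mice against 7.53, 5.87, 7.17, 7.18 and 5.90 in air mice (difference -2.32, SE 0.85, adjusted p = 0.678). Cidea differed by -0.79 and Ucp1, the brown fat uncoupler, by -1.0, where air mice stood at 6.75 and 5.16 beside 9 mice at 3.08 to 3.59. Thymus, thyroid, oesophagus, liver and skeletal muscle lists had medians of -0.03 to 0.11.

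Mast cell genes were high in 1 mouse. The chymase Cma1 read 3.20, 3.48, 4.16, 3.57, 8.39 and 3.17 in exposed mice and 2.98 to 3.24 in air mice. The IgE receptor chain Fcer1a read 8.02 in the same mouse and 2.43 to 2.91 in the other exposed mice, with 2.52 to 3.36 in air mice. The carboxypeptidase Cpa3 (7.28) and the protease Mcpt4 (8.22) peaked in that mouse too, which is replicate 5, the mouse with the tumour note. Without it the differences were 0.38 for Cma1, 0.03 for Cpa3, -0.18 for Fcer1a and -0.25 for Mcpt4, against 1.19, 0.77, 0.72 and 0.49 with it.

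**Figure D4:**
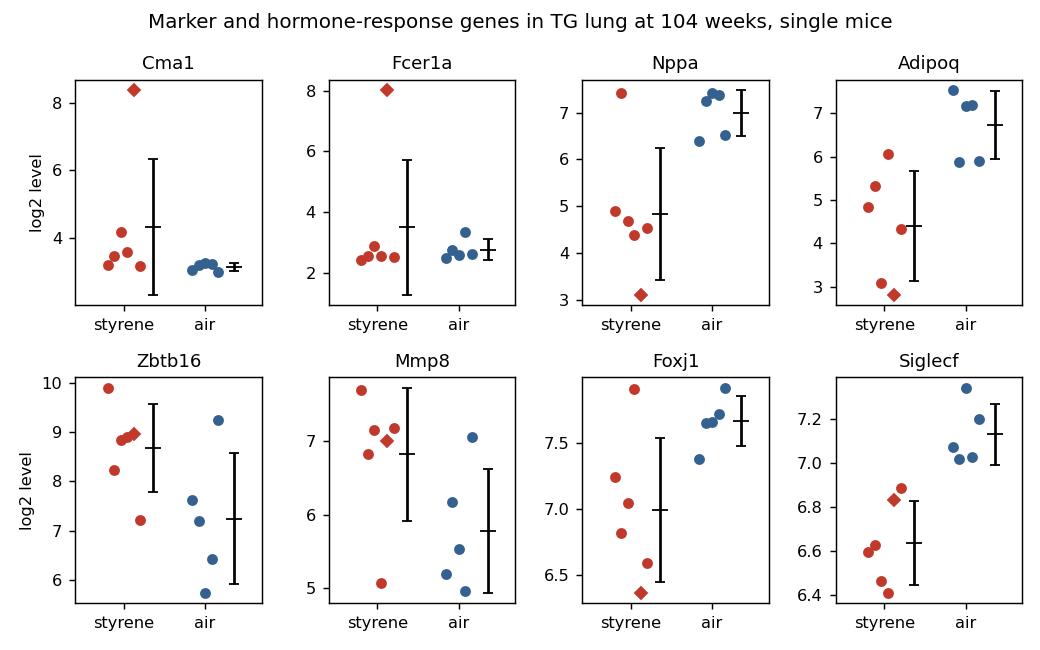
Log2 level of 8 marker and response genes in each TG mouse at 104 weeks, styrene left of air, with mean and SD. The diamond is the exposed mouse whose label notes tumours: it is at 8.39 for Cma1 and 8.02 for Fcer1a. Siglecf shows no overlap between groups, and Nppa and Adipoq are lower in most exposed mice.

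**Figure D5:**
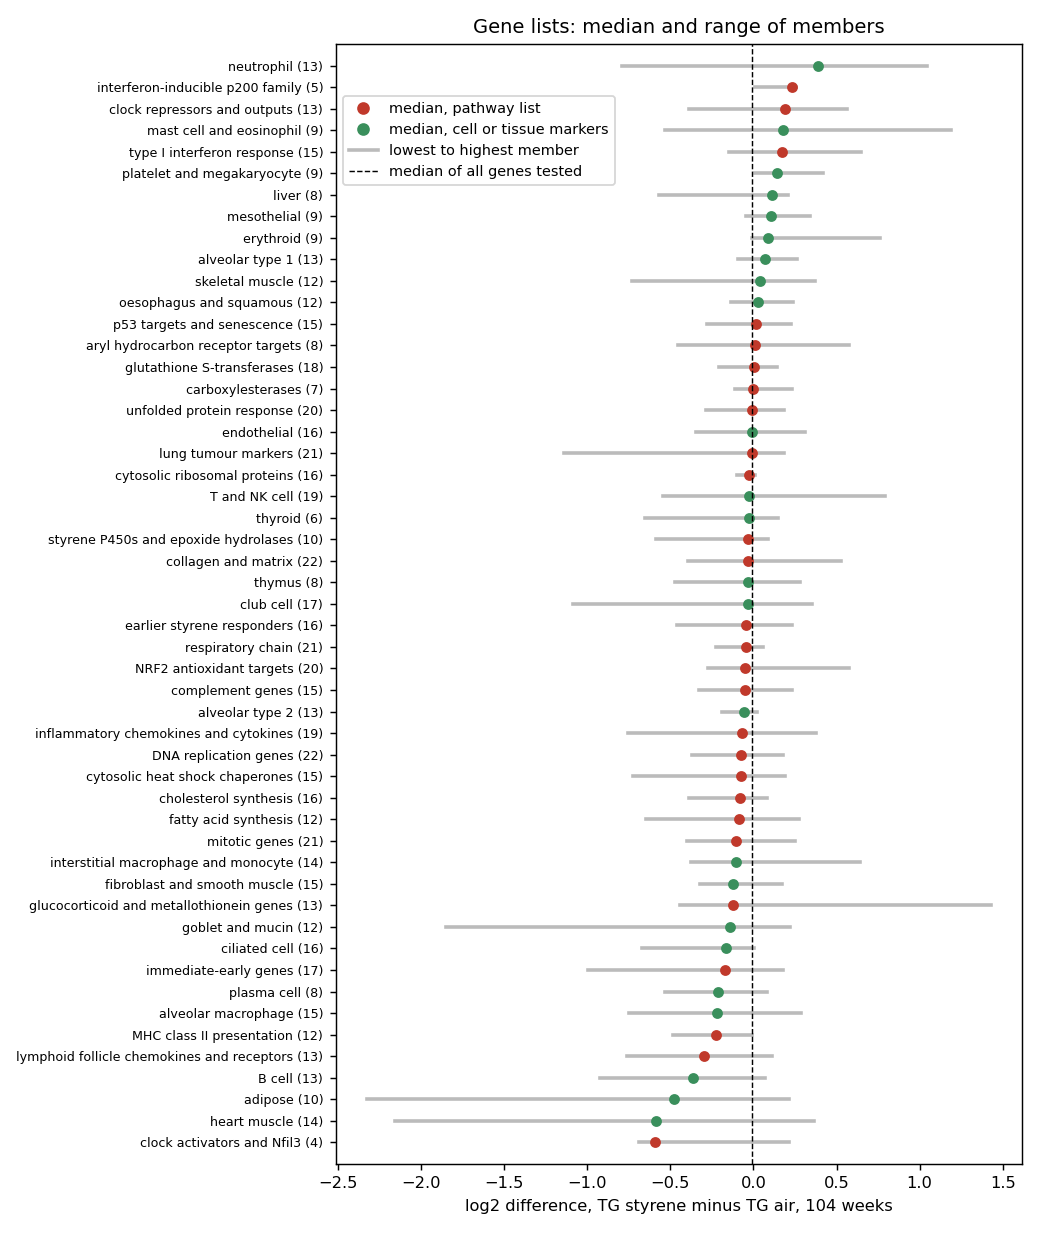
Median (dot) and range (bar) of the log2 difference between exposed and air TG mice for each gene list, with the number of genes tested in parentheses. The medians run from -0.59 for the clock activators with Nfil3 and for heart muscle to 0.39 for neutrophil markers, and the dashed line marks the median of all genes, -0.01.

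The styrene differences of TG and KO mice at 104 weeks were set against each other. Both lines lack CYP2F2, and only TG mice carry the human enzymes. Dose and plate nearly coincide in both, and an effect of the human enzymes by themselves was not tested. They differed in 3942 of 15695 genes (25.1%), 1734 (11%) higher and 2208 (14.1%) lower in TG, by limma with adjusted p under 0.05. Styrene and air differed in 6176 genes (39.4%) in KO mice. In 3748 of the 3942 the KO difference was the larger in size. Genes with the highest TG minus KO difference were the factor Zbtb16 (2.06), the cell polarity gene Lin7c (2.06), the DNA demethylase Tet2 (2.06), the lipid transporter Abca5 (1.96), Zfp281 (1.95) and Rabgap1l (1.94). Of these, Lin7c and Abca5 were called in all 35 settings tried and Zbtb16 in 21 of 35, with a difference of 1.35 to 2.56. Lin7c differed by 0.61 between exposed and air TG mice and by -1.44 in KO mice. The lowest were Ucp1 (-1.42), the amine oxidase Aoc3 (-1.42), Tpgs2 (-1.30), Rbp7 (-1.26), Trdn (-1.25) and the lipid exporter Mfsd2b (-1.23). Ucp1 stood high in only some TG air mice, as given above. Its list, the adipose genes, had a median difference of -0.48 in TG and 0.24 in KO mice. Fat adhering to the lung as a source was not tested. Tpgs2 was called in 35 of 35 settings, Ucp1 in 26 of 34 and Rbp7 in 23 of 34. Tpgs2 is also among the leading genes of the TG comparison, at -0.65 in TG and 0.65 in KO mice. With the axis score as a covariate 25 genes (0.159%) were called, of which 21 are among the 3942; Lin7c (adjusted p = 0.0168), Abca5 (0.0168) and Tpgs2 (0.0132) are in both. Without KO styrene replicate 1 the count was 2482, without TG air replicate 2 it was 2545, and with only the arrays of these 4 groups 2561. None of the 16 genes of the earlier list was called in this comparison.

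TG and WT mice differed more. Their styrene differences were unequal in 5847 genes (37.3%), 2365 (15.1%) higher and 3482 (22.2%) lower in TG, and in 5691 of them the WT difference was the larger in size. The highest were Slfn4, an interferon-inducible myeloid gene (3.90), Zbtb16 (3.43), Tet2 (2.96), Ccdc141 (2.49), Lin7c (2.44) and Zfp281 (2.44). The lowest were Dbp (-3.28), the mucosal glycoprotein Gp2 (-2.86), Ces1g (-2.74), the granzyme Gzmm (-2.51), Cdhr1 (-2.38) and the histone H1f4 (-2.26). Of the 17 clock genes 6 differed, a share close to the 37.3% of all genes. Arntl (1.90) and Clock (1.62) were higher in TG, and Dbp, Ciart (-1.60), Per2 (-1.17) and Bhlhe40 (-1.05) were lower. Of the 16 earlier genes, chosen on WT and CD-1 arrays, 9 differed, 4 higher and 5 lower, beside 37.3% of all genes. Ces1g (adjusted p = 4.98e-07), Serpind1 (-1.90, adjusted p = 3.50e-05), Kng1 (-1.81), the basic helix-loop-helix factor Tcfl5 (-1.61) and Opn3 (-0.80) were lower, and Pon1 (1.82), Cldn8 (1.58), A930001A20Rik (1.46) and Asgr1 (1.44) were higher. With the axis score as a covariate 138 genes (0.879%) were called, 121 of them among the 5847. Of the 16, Ces1g (-2.41, adjusted p = 4.80e-04), Serpind1 (-1.49, 0.0344), Tcfl5 (-1.38, 0.0424) and A930001A20Rik (1.04, 0.0306) kept their call there. Asgr1 (1.56, 0.210), Pon1 (1.03, 0.152), Kng1 (-1.01, 0.319), Cldn8 (0.82, 0.351) and Opn3 (-0.43, 0.296) did not, and the Asgr1 difference was no smaller than without the covariate. No clock gene was called with the covariate, although the differences of Dbp (-2.70, adjusted p = 0.184), Arntl (1.65, 0.226), Ciart (-1.45, 0.167) and Per2 (-1.18, 0.251) stayed near those without it. Those of Clock (0.43) and Bhlhe40 (-0.53) were smaller.

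The genes that weigh most on the axis were read in each strain at 104 weeks. The score is a weighted sum of these same values, so the medians below describe the score differences in genes and are no separate test. The 1570 genes with the highest loading had a median difference of 0.13 in TG mice, against -0.78 in KO, -1.02 in WT and -0.96 in CD-1 mice. The 1570 with the lowest loading had -0.09 in TG mice and 0.39, 0.53 and 0.46 in KO, WT and CD-1 mice. In WT mice the score also separates styrene from air. As a covariate it therefore takes out any styrene effect that lies along the axis, and the fit cannot tell such an effect from another shift. How far the shift of the exposed KO, WT and CD-1 arrays along this axis accounts for the strain differences was not tested.

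The TG difference at 104 weeks was last set against the mean of those at 26 and 52 weeks. By limma 0 genes (0%) were called, 666 genes (4.24%) had an unadjusted p under 0.05, and the smallest adjusted p was 1.0. In TG mice alone, 0 genes (0%) were called at 26 weeks, 2 (0.0127%) at 52 weeks and 30 (0.191%) at 78 weeks. At 78 weeks 3279 genes had an unadjusted p under 0.05, against 980 at 104 weeks, and A930001A20Rik, of the earlier list, was among those called (-1.21, adjusted p = 0.0339). The 3 styrene arrays of 78 weeks lie on plate 2 and the 5 air arrays on plate 1, and the difference between the 78 and 104 week effects was not tested. Zfp292 differed by -0.02 at 26, 0.38 at 52, -0.16 at 78 and 0.67 at 104 weeks. Nqo1 differed by 0.26, -0.03, 0.40 and 0.57 at the same times. Ces1g differed by 0.33, 0.23 and 0.12, and Serpind1 by 0.07, -0.48 and 0.01, at 26, 52 and 78 weeks.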

How the data were processed

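RNA from the lungs of 150 mice was measured on Affymetrix HT MG-430 PM arrays. Values were deposited by the authors as log2 intensities for each probe set after RMA, and Partek is named too, per the submitters' processing notes, without versions. Array medians ran from 3.95 to 4.26. Arrays give no read depth, so their number limits the precision. Groups came from the titles. The replicates are labelled biological.

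Of 45037 probe sets, 28898 have 1 gene in the platform annotation, 551 have several and 15588 are unlisted and stay unnamed. The probe set with the highest mean stood for each of 17097 genes, and 15695 lay above their array's 30th percentile (2.99 to 3.19) in at least 3 arrays. Group means of all 150 arrays and a plate 2 term were fitted with limma 3.58.1 in R 4.3.3, with Benjamini-Hochberg adjustment over all genes tested and a threshold of 0.05. The adjusted p-values of genes are limma's. The fit was tested on simulated data. Axis scores were compared by exact permutation.

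The members and the gene lists were chosen with earlier results of these data known. Named genes are the 8 per direction with the smallest p, the 6 highest and 6 lowest called genes between strains, up to 4 per list with the smallest p, the clock genes, Cyp2f2, Serpind1, Ces1f, Ces1g, Asgr1 and Pon1. Others, such as Kng1, Cldn8, Opn3 and A930001A20Rik, and the 3 promoters were chosen after their values were seen. Alternatives changed the filter, probe sets, arrays fitted, weights, plate terms, the axis covariate and the replicate block, and left out each array or the tumour-labelled mice.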

Additional observations from a re-analysis of the deposited data

Results flagged for a closer look

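In 23 of 220 sets of 5 or 6 TG values examined, 1 mouse stood far from the others, where chance gives about 1 in 20. Exposed replicate 5, the mouse with the tumour note, held the high values of Cma1 (8.39), Cpa3 (7.28), Fcer1a (8.02) and Mcpt4 (8.22), all mast cell genes, and a low Pon1 (9.52). Exposed replicate 4 stood apart in Cyp2f2 (12.39), Itih2 (4.13), Gsta2 (7.30), Usp2 (7.61), Gp2 (6.34) and Mmp8 (5.07). Exposed replicate 1 did so in Bhlhe40 (8.14), H2-Ab1 (10.11), H2-DMb1 (6.69), Pcdhb21 (3.50), Wdr89 (3.28) and Ccdc141 (7.49), replicate 2 in Per1 (6.77) and replicate 3 in Gzma (9.77). Among TG air mice, replicate 2 stood apart in Gkn1 (3.70) and Gzma (8.59), replicate 4 in Gzmm (9.35) and replicate 5 in H2-Ab1 (10.67).

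The styrene difference was unequal between TG and KO mice in 3942 genes by limma's test of the difference. For named genes the TG minus KO difference was 2.06 for Zbtb16, 2.06 for Lin7c, 2.06 for Tet2, 1.96 for Abca5, 1.95 for Zfp281, 1.94 for Rabgap1l, 1.57 for Nr1d2 and 0.98 for Clock. It was -1.23 for Mfsd2b, -1.25 for Trdn, -1.26 for Rbp7, -1.30 for Tpgs2, -1.42 for Aoc3 and -1.42 for Ucp1.

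Between TG and WT mice it was unequal in 5847 genes. The TG minus WT difference was 3.90 for Slfn4, 3.43 for Zbtb16, 2.96 for Tet2, 2.49 for Ccdc141, 2.44 for Lin7c, 2.44 for Zfp281, 1.90 for Arntl, 1.82 for Pon1, 1.62 for Clock, 1.58 for Cldn8, 1.46 for A930001A20Rik and 1.44 for Asgr1. It was -0.80 for Opn3, -1.05 for Bhlhe40, -1.17 for Per2, -1.60 for Ciart, -1.61 for Tcfl5, -1.81 for Kng1, -1.90 for Serpind1, -2.26 for H1f4, -2.38 for Cdhr1, -2.51 for Gzmm, -2.74 for Ces1g, -2.86 for Gp2 and -3.28 for Dbp.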

How the results depend on the processing

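The count of called genes between exposed and air TG mice was 0, and 17 (10 higher, 7 lower) with a plate 4 term and the KO arrays of unsettled plate placed on plate 3, a fit that estimates the plate from those KO arrays. In that fit 3140 genes had an unadjusted limma p under 0.05, against 980 in the main fit. With the TG arrays of unsettled plate placed on plate 3 instead, 0 genes were called and 868 had such a p. The count of called genes was 2 with the axis covariate, and 0 to 1 when each array was left out: 1 without TG air replicate 1, 2 or 5 (Zfp292, Map7d2 and Cd69). The unadjusted count then ran from 601 to 1443. For TG minus KO it was 3942, 2561 with only the arrays of these groups, 25 with the axis covariate, 2482 (without KO styrene replicate 1) to 5581 (without KO styrene replicate 5) when each array was left out, and 2545 without TG air replicate 2. For TG minus WT it was 5847, 138 with the axis covariate and 4860 to 6371 when each array was left out. For 104 weeks minus the earlier times it was 0, and 1 with the axis covariate. At an unadjusted limma p under 0.05 that comparison had 666 genes, and 2397 with the KO arrays of unsettled plate on plate 3. The cause of these shifts was not tested. Without the tumour-labelled mice the counts of the 4 comparisons, in the order above, were 0, 5043, 6293 and 0. With the replicate block the counts were 0, 4133, 5974 and 0, and replicate numbers did not pair the samples (correlations of -0.128 to 0.393 over 5 pairs). No value changed sign with a call, but several uncalled differences between exposed and air TG mice took both signs over the alternatives. Among them were those of Arntl, Dbp, Ciart, Per2, Bpifb1 and Eln, so that their directions depend on the setting. Over the alternatives for named genes, 53 values for TG minus KO and 41 for TG minus WT were no longer past the threshold. The 5 or 6 mice in each TG group at 104 weeks limit the precision. Dose and plate nearly coincide there, which the confidence intervals do not cover.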
